A study of Mus musculus with 12 samples.

Results

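RNA from female mouse embryonic stem cells (mESC) labelled Rif1 KO was compared with RNA from embryoid bodies (EB) that the same cells had formed over 2 days. RIF1 is a chromatin protein that sets the time at which parts of the genome replicate and steers repair of double-strand breaks. The comparison rests on 4 of the 12 libraries of the study, 2 from KO mESC and 2 from KO EB, and on the 17115 of 24391 genes that passed a filter on low counts. Lines 15.10 and 16.9 gave 1 library each in both states, so that wherever 2 values are given for a KO group they belong to line 15.10 and then line 16.9. Both lines have the genotype Rif1F/F Rs26+/CreERT, which is floxed Rif1 on both alleles with a Cre recombinase made active by 4-hydroxytamoxifen (OHT), in a hybrid background of C57BL/6J-129/SvJ with Mus musculus castaneus. KO mESC had received OHT for 2 days and grew in serum with leukemia inhibitory factor (LIF), the MEK inhibitor PD0325901 and the GSK3 inhibitor CHIR99021. KO EB had received OHT and were then differentiated for 2 days. Lines 5.3 and 5.16 (Rif1+/+ Rs26+/CreERT), with the same Cre, OHT and differentiation, are called WT and give the same step for reference. Libraries of lines 15.10 and 16.9 taken before OHT are called F/F. Each group has 2 libraries from 2 separately named lines, so p-values measure the spread between such lines, and the Rif1F/F and Rif1+/+ pairs may differ in more than Rif1.

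Mouse embryonic stem cells kept with LIF and both inhibitors are held in the naive state, which resembles the epiblast before implantation. When they aggregate into EB without these agents they leave that state, pass through a formative stage resembling the epiblast around implantation, and then begin to form the germ layers. On this path naive transcription factors are shut down, de novo DNA methyltransferases are switched on, signalling through FGF and Nodal rises, and in female cells 1 of the X chromosomes starts to be silenced under control of the noncoding RNA Xist.

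Between 28600870 and 36670852 reads were counted in each KO library. The ribosomal RNA precursor Rn45s took 3.99% to 5.79% of them. Levels are CPM, read counts relative to the scaled size of the library, and they compare libraries for 1 gene, not genes with each other. Each p is adjusted over all 17115 genes and comes from the quasi-likelihood F-test of edgeR, a gene is called where its value is under 0.05, and ± marks the standard error of a log2 fold change. The run code in the library descriptions was 1 for all mESC after OHT and another for all EB, so condition and sequencing run cannot be told apart. One WT library, WT mESC of line 5.3, stood apart with 9228 CPM of Lars2 against 229 to 1433 CPM in the other 7 libraries after OHT. Counts of differences from WT are given without it where they move by over 1.5 times. Those fits keep 1 WT mESC library. The 28.6% of all genes set beside such counts is from the fit with all libraries and is no background for them. As a check of the mESC label, the defining markers Pou5f1, Sox2, Nanog, Zfp42, Esrrb and Klf4 each had at least 304 CPM in both KO mESC libraries. Of the markers of feeder fibroblasts, on which such cells are often grown, Col3a1 and Dcn had 0 counts in both KO mESC libraries, Lum at most 2 and Postn at most 2, while Col1a1 had 76 and 129 counts, Col1a2 26 and 39 and Thy1 63 and 66.

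Rif1 itself was counted at 702 and 661 CPM in mESC and 789 and 845 CPM in EB, a rise of 0.26 ± 0.08 on the log2 scale (edgeR adjusted p = 0.00669). The F/F lines before OHT stood at 1172 and 1172 CPM, above all 4 KO libraries, and WT libraries at 1605 and 1455 CPM in mESC and 1382 and 1342 CPM in EB. The labels do not say which exons the floxed sites enclose, and reads over the whole gene do not measure the deletion. The call was lost without the mESC or the EB library of line 16.9 (edgeR adjusted p = 0.0763 and 0.0842), and against F/F mESC the log2 fold change was -0.52.

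Differentiation changed most of the transcriptome of the KO lines. Of the genes tested, 10100 were called (59%), with 5371 higher (31.4%) and 4729 lower (27.6%) in EB. Changes of at least 2-fold were counted in 2509 genes that rose (14.7%) and 1663 that fell (9.72%), and changes of at least 16-fold in 457 and 75. At the other end, 3818 calls were smaller than 1.5-fold. The median log2 fold change of all genes tested was 0.043. All 10100 calls had the same direction in both lines, and in 10098 of them the libraries of mESC and EB did not overlap, against 82.4% of all genes tested. A total of 97 genes were under 0.1 CPM in both KO mESC libraries and at 1 CPM or more in both KO EB libraries, and 3 genes, Ffar2, Foxb2 and Tlx1, did the reverse. In bulk RNA, fewer cells that express a gene and less RNA per cell cannot be told apart.

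**Figure D1:**
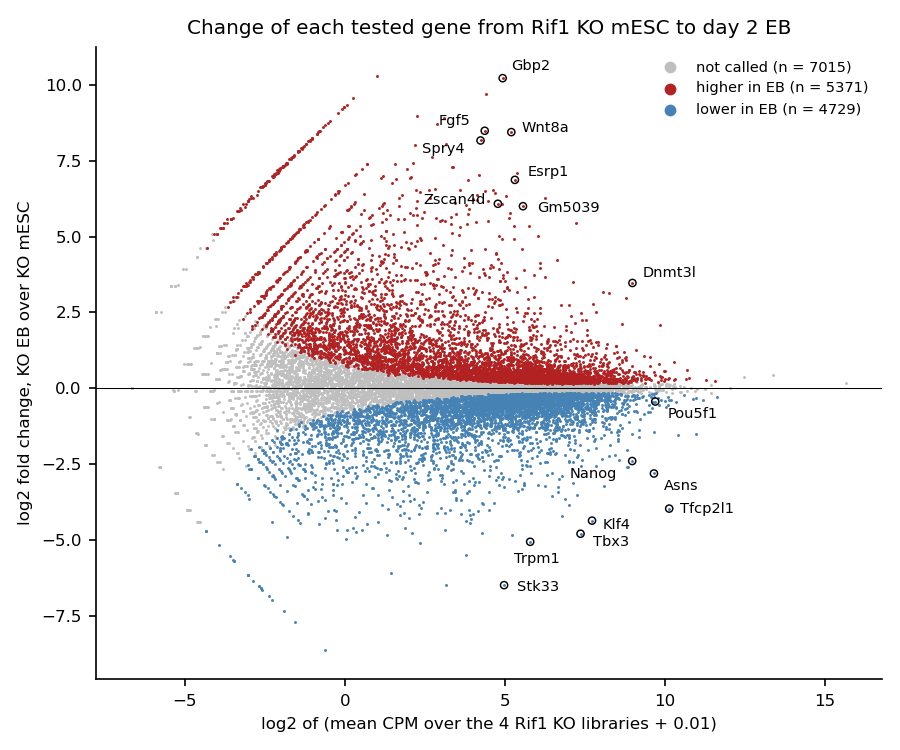
Each point is 1 of the 17115 tested genes, with the log2 of its mean CPM over the 4 KO libraries on the x axis and its log2 fold change from KO mESC to KO EB on the y axis. The 5371 red genes were called higher and the 4729 blue genes lower in EB, and among the circled genes the rises of Gbp2 and Fgf5 reach further from 0 than the falls of Stk33 and Trpm1. Straight rows of points at the left edge are genes with 0 or very few reads in one state, whose fitted change depends on the prior count.

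The 12 largest rises joined epiblast ligands, a brake on receptor signalling and interferon-inducible genes. Fgf5, the fibroblast growth factor that marks the epiblast around implantation, had 0.132 and 0.0924 CPM in mESC and 42.4 and 39.9 CPM in EB (8.49 ± 0.47 on the log2 scale, edgeR adjusted p = 3.3e-15). Wnt8a, a Wnt ligand of the early epiblast and primitive streak, had 0.265 and 0.154 CPM in mESC and 77.8 and 68.6 CPM in EB. Both stood near the limit of detection in mESC and at clear levels in both EB libraries. Spry4, an inhibitor of signalling from receptor tyrosine kinases, rose from 0.0661 and 0.185 to 35.9 and 39.2 CPM. Gbp2, Gbp3 and Gbp7, guanylate-binding GTPases that interferon induces, each had 2 or 3 reads over both mESC libraries. Gbp2 reached 66 and 55.6 CPM in EB (1280-fold, 95% counting interval 439 to 6230), Gbp3 18 and 15.9 CPM and Gbp7 15.2 and 13.9 CPM. Cxcl10, an interferon-induced chemokine, rose from 0.0331 and 0.0924 to 13.9 and 12.1 CPM. The remaining ones were Vrtn, a DNA-binding protein known for its part in vertebral number (891-fold, 95% counting interval 305 to 4320), the intracellular chloride channel Clic5 (604-fold, 95% counting interval 108 to 23900), the glutamate receptor Grm6 (287-fold, 95% counting interval 79 to 2370), the olfactory receptor Olfr855 (at least 82.5-fold) and Pramef6, a PRAME family gene (from 0.0661 and 0.0616 to 17.4 and 18.1 CPM).

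The 12 largest falls started from higher levels and held 1 naive pluripotency factor. Tbx3, a T-box factor of the naive network, had 287 and 347 CPM in mESC and 11.1 and 11.7 CPM in EB, which is 27.8-fold lower (-4.80 ± 0.11, edgeR adjusted p = 2.92e-15). Stk33, a serine/threonine kinase, had 64 and 60.2 CPM in mESC and 0.907 and 0.412 CPM in EB, and Trpm1, a cation channel, had 102 and 112 CPM in mESC and 3.34 and 3.05 CPM in EB. In each of these the higher EB library lay far below the lower mESC library, but genes with overlap were left out of this ranking. Tbx20, another T-box factor, fell from 71.6 and 71.8 to 2.32 and 2.75 CPM, 28.5-fold. The neighbouring genes Ffar2 and Ffar3, receptors for short-chain fatty acids, fell by 68.1-fold and 44.8-fold. Mal, a membrane proteolipid, fell 88.7-fold, Sh2d4b 34.4-fold, the aminopeptidase Lvrn 28.3-fold, the fructose-bisphosphatase Fbp2 27.2-fold and the glycosyltransferase B3gnt3 25.7-fold.

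Most naive pluripotency genes fell, and the core list moved both ways. Of 26 naive genes tested, 21 fell and 3 rose, with a median log2 fold change of -1.65 beside 0.043 over all genes. Tfcp2l1, a transcription factor under LIF control, had 2041 and 2167 CPM in mESC and 134 and 135 CPM in EB, 15.6-fold lower. Klf4 had 370.3 and 433 CPM in mESC and 20.7 and 18.3 CPM in EB, 20.6-fold lower, and Klf5 fell from 69.9 and 86.9 to 13.6 and 13.6 CPM. Nanog had 806 and 884 CPM in mESC and 162 and 159 CPM in EB, 5.27-fold lower, and Esrrb, a nuclear receptor that binds many of the same sites, had 683 and 748 CPM in mESC and 175 and 173 CPM in EB, 4.11-fold lower. In all 5 regulators the libraries of the 2 states lay far apart, and all were still counted well above 0 in EB. Prdm14, which keeps de novo methyltransferases and FGF receptors low, fell from 107 and 101 to 22.8 and 22 CPM, and Nr5a2, a nuclear receptor of the same network, from 79.3 and 92 to 15.7 and 17.1 CPM. Tet2, a dioxygenase that removes DNA methylation, fell from 622 and 649.8 to 122 and 124 CPM, the threonine dehydrogenase Tdh from 434 and 434 to 86.2 and 87.4 CPM, and the small GTPase Mras from 36 and 36.5 to 2.75 and 2.51 CPM. Against the trend, Fbxo15 had 284 and 293 CPM in mESC and 352 and 365 CPM in EB and Dppa3, a maternal factor that protects DNA methylation, 9.76 and 10.3 CPM in mESC and 16.5 and 13 CPM in EB, and both were called higher, Dppa3 not without the EB library of line 15.10 (edgeR adjusted p = 0.0532). Klf9 and Manba were not called, with 203 and 215 CPM in mESC and 182 and 190.3 CPM in EB for Klf9.

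In the core list 9 of 14 rose and 3 fell, with a median of 0.28. Pou5f1, which encodes OCT4, had 932 and 973 CPM in mESC and 735 and 670.3 CPM in EB, 1.36-fold lower, and Sox2 had 387 and 395 CPM in mESC and 206 and 192 CPM in EB, 1.97-fold lower. Fgf4, a target of both factors, fell from 518 and 528 to 287 and 292 CPM. The falls of these 3 genes were thus smaller than those of the naive regulators named above. The RNA-binding proteins Lin28a and Lin28b, which block maturation of let-7, rose from 47 and 54.6 to 282 and 283 CPM and from 24.5 and 24.1 to 62.2 and 70.9 CPM. Tdgf1, a coreceptor of Nodal, rose from 279 and 305 to 581 and 599 CPM and Mycn from 141 and 160.2 to 304 and 303 CPM. Sall4, a zinc-finger factor, showed no called change, with 539.8 and 573 CPM in mESC and 541 and 532 CPM in EB, and neither did L1td1, with 499 and 538 CPM in mESC and 596 and 599 CPM in EB.

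**Figure D2:**
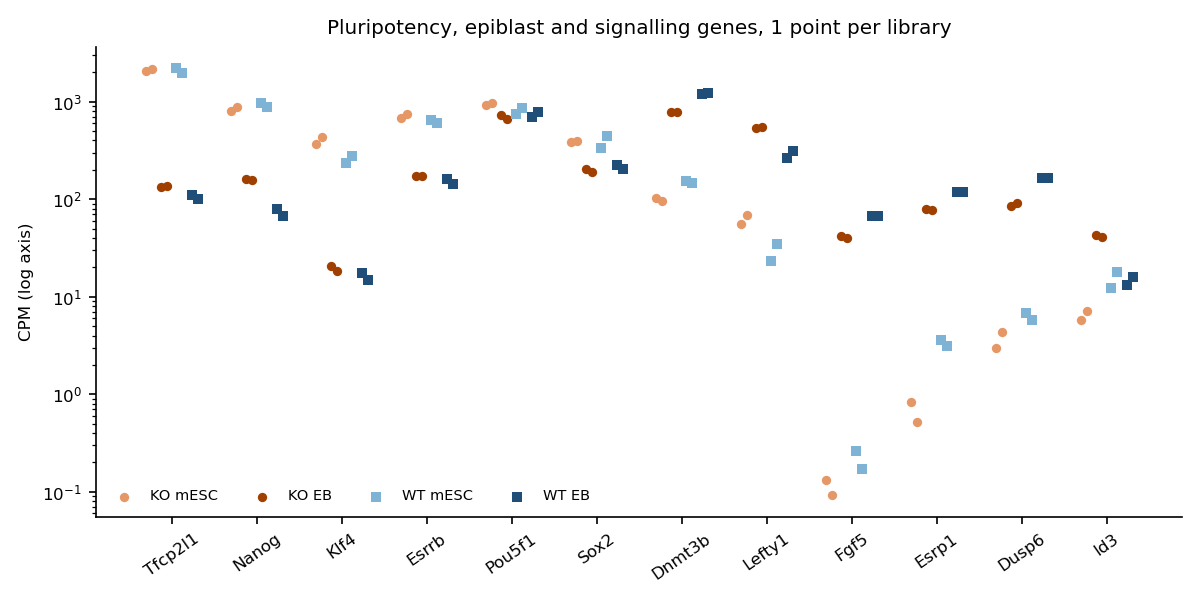
CPM of 12 genes on a log axis, with 1 point for each library of KO mESC, KO EB, WT mESC and WT EB. Tfcp2l1, Nanog, Klf4 and Esrrb are lower in both KO EB libraries than in both KO mESC libraries, Pou5f1 and Sox2 fall less, Dnmt3b, Lefty1, Fgf5, Esrp1 and Dusp6 are higher in EB, and Id3 is higher in KO EB but not in WT EB.

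Most genes of the formative and primed epiblast rose. Of 30 tested, 24 rose and 4 fell, with a median of 1.01 in KO beside 1.81 for the same genes in WT. Besides Fgf5 and Wnt8a, Pou3f1, a POU factor of the later epiblast, had 6.08 and 6.25 CPM in mESC and 65.9 and 56.5 CPM in EB, 9.92-fold higher. Lef1, a nuclear partner of beta-catenin, had 4.83 and 5.30 CPM in mESC and 59 and 57.8 CPM in EB, and the kinase Pim2 10.4 and 12 CPM in mESC and 148 and 134 CPM in EB. Otx2, a homeobox factor that redirects OCT4 to new enhancers, had 43.3 and 43.9 CPM in mESC and 78.3 and 78.1 CPM in EB, 1.79-fold higher. These libraries did not overlap between the states, which held for 10098 of all 10100 calls. Grhl2, which opens epithelial enhancers, rose from 14.1 and 12.4 to 107 and 107 CPM, and Zic2, a zinc-finger factor of primed cells, from 47 and 50.9 to 77.4 and 75 CPM. Exceptions were Foxd3, which fell from 18.6 and 22.7 to 10.2 and 8.44 CPM, Cdh2, the N-cadherin gene, from 20.5 and 20.2 to 10.8 and 11.9 CPM, and Nkx1-2, from 3.24 and 3.24 to 0.374 and 0.275 CPM. Enah and Oc90 were not called, with 445 and 429 CPM in mESC and 451 and 472 CPM in EB for Enah.

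Epithelial and mesenchymal markers moved both ways, with 10 of 22 higher, 8 lower and a median of 0.10. Esrp1, a splicing factor of epithelial transcripts, had 0.827 and 0.524 CPM in mESC and 79.3 and 78 CPM in EB, 117-fold higher. The cell adhesion gene Epcam rose from 60.3 and 56 to 277 and 282 CPM and Cldn6, a claudin of early embryonic epithelium, from 3.08 and 3.11 to 21.4 and 23.1 CPM, while Cdh1, the E-cadherin gene, had 429 and 485 CPM in mESC and 517 and 525 CPM in EB. The call of Cdh1 was lost without the mESC library of line 15.10 or either EB library (edgeR adjusted p = 0.349, 0.0988 and 0.142). On the mesenchymal side Snai1 rose from 0.926 and 1.20 to 6.70 and 6.42 CPM, whereas Zeb1 fell from 49.1 and 49 to 18.8 and 17.2 CPM and the fibronectin gene Fn1 from 2657 and 3284 to 1017 and 1063 CPM. Vim, the vimentin gene, had 103 and 112 CPM in mESC and 114 and 111 CPM in EB and was not called.

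Nodal, a TGF-beta family ligand, signals through activin receptors and SMAD2/3 and induces its own inhibitors. Of 18 pathway genes tested, 10 rose and 6 fell, with a median of 0.48. The ligand Nodal rose from 119.6 and 124 to 272 and 259 CPM. Its feedback inhibitors Lefty1 and Lefty2 had 56.2 and 68.7 CPM in mESC and 537 and 553 CPM in EB and 208 and 225 CPM in mESC and 372 and 395 CPM in EB respectively. The nuclear partner Foxh1 rose from 15 and 16.5 to 84.3 and 79.3 CPM and the corepressor Skil from 134 and 127 to 348 and 356 CPM. Ligand, nuclear partner and inhibitors were thus all higher in both EB libraries. The proprotein convertases that cleave the Nodal precursor were lower, Pcsk6 from 285 and 288 to 54.8 and 56.4 CPM and Furin from 75.2 and 88.5 to 43 and 40.3 CPM. Smad7, an inhibitory SMAD, fell from 108 and 119 to 59.2 and 60.3 CPM, and the signal carrier Smad2 had 129 and 119.7 CPM in mESC and 119 and 118 CPM in EB without a call.

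FGF ligands and receptors changed in nearly every member, with 10 of 16 higher, 5 lower and a median of 0.91. The ligands Fgf8 and Fgf15, which act in the early embryo, rose from 0.397 and 0.246 to 10.5 and 9.33 CPM and from 1.98 and 1.85 to 55.7 and 61.2 CPM, and the receptor Fgfr2 from 5.85 and 6.22 to 72.8 and 76.9 CPM, 12.4-fold. Fgf10 and Fgf3 fell from 4.00 and 5.08 to 0.827 and 0.549 CPM and from 3.34 and 4.10 to 0.614 and 0.549 CPM. FGF signals through the MAP kinase ERK, the step that the MEK inhibitor of the mESC medium blocks, and ERK induces its own phosphatases and inhibitors. Of 24 such feedback and immediate target genes, 13 rose and 3 fell, with a median of 0.84. Their called share was 66.7%, beside 59% of all genes. The ERK phosphatase Dusp6 had 2.98 and 4.38 CPM in mESC and 86.2 and 90.7 CPM in EB, 23.9-fold higher, Dusp4 rose from 3.87 and 4.78 to 59.2 and 55.4 CPM, and the ETS factor Etv4 from 0.694 and 0.585 to 26.8 and 27.7 CPM. Those 3 genes and Spry4 were low in both mESC libraries. Not every feedback gene rose. Etv5 had 206 and 196 CPM in mESC and 190.3 and 190.0 CPM in EB and was not called, and Spry2 fell from 44.8 and 50.6 to 33.6 and 38.1 CPM, while in WT it rose by 1.45 on the log2 scale (adjusted p of the difference 4.72e-08, edgeR). The change differed from that in WT for 28.6% of all genes tested, and among these 24 it was higher in KO for 8 and lower for 6, or 4 and 5 without the WT mESC library of line 5.3.

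LIF acts through the receptor chains LIFR and gp130, JAK kinases and STAT3. Of 18 genes of this pathway, 12 fell and 1 rose, with a median of -0.74. The receptor genes Lifr and Il6st, which encodes gp130, fell from 124 and 125 to 63.9 and 68.4 CPM and from 190.3 and 207 to 101 and 106 CPM. Stat3 fell from 91.5 and 97.7 to 45.2 and 42.8 CPM, and its targets Socs3, a feedback inhibitor, and Bcl3, an NF-kappa-B cofactor, from 51.4 and 56.5 to 12.7 and 13.3 CPM and from 26.7 and 26.9 to 2.99 and 1.99 CPM. Both receptor chains, STAT3 and these 2 targets were thus lower in both EB libraries. Other targets did not fall. The kinase gene Pim1 had 238 and 236 CPM in mESC and 217 and 206 CPM in EB without a call, and Gbx2, a homeobox target of STAT3, rose from 3.51 and 3.45 to 9.18 and 8.75 CPM.

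BMP pathway genes split evenly, 10 of 22 higher and 9 lower, with a median of -0.027. The Id genes encode inhibitors of basic helix-loop-helix factors and are the usual readout of BMP. Id1 had 3.77 and 4.84 CPM in mESC and 64.5 and 59.4 CPM in EB, 14.4-fold higher, and Id3 5.79 and 7.15 CPM in mESC and 42.5 and 41.3 CPM in EB, 6.47-fold higher. In WT, Id3 had 12.4 and 18 CPM in mESC and 13.3 and 16 CPM in EB, so that the libraries overlapped there (adjusted p of the difference 4.49e-05, edgeR). The ligand Bmp4 rose from 2.15 and 2.74 to 6.38 and 5.94 CPM, with 6.59 and 6.36 CPM in WT mESC and 6.79 and 5.61 CPM in WT EB. The receptor Bmpr1b rose from 0.265 and 0.739 to 7.69 and 8.44 CPM, while Bmp7 fell from 21.9 and 22.7 to 5.79 and 5.01 CPM and the GATA factor gene Gata2 from 14.8 and 17.2 to 3.76 and 4.19 CPM. Of the 22 genes, the change was higher in KO than in WT for 12 and lower for 0, beside the 28.6% of all genes with a called difference in either direction.

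Targets of Wnt and beta-catenin, whose degradation the GSK3 inhibitor of the mESC medium blocks, also moved both ways, 6 of 22 higher and 7 lower, with a median of -0.10. Their called share of 59.1% was close to the 59% of all genes. Apcdd1, a Wnt inhibitor, fell from 47.3 and 48.3 to 10.3 and 10.02 CPM, and the caudal gene Cdx1 from 6.58 and 6.25 to 0.267 and 1.03 CPM. Axin2, the most general feedback target, had 35.5 and 41.2 CPM in mESC and 29.7 and 26.5 CPM in EB and was called lower, but not without the mESC or the EB library of line 16.9 (edgeR adjusted p = 0.114 and 0.091). The receptor gene Fzd7 rose from 43.9 and 53.2 to 164 and 159 CPM, and Ccnd1, the cyclin D1 gene, from 68.7 and 66.8 to 136 and 147 CPM. In WT, Ccnd1 was not higher in EB, with 127 and 137 CPM in mESC and 129.9 and 119 CPM in EB. Tcf7, which encodes a partner of beta-catenin, was not called, with 36.8 and 36.4 CPM in mESC and 35 and 36.9 CPM in EB.

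Markers of the germ layers changed in small steps or from few reads. Of 19 gastrulation and mesendoderm genes tested, 11 rose and 4 fell, with a median of 0.90. Eomes, a T-box factor of the primitive streak, had 7.54 and 7.70 CPM in mESC and 20.8 and 19.6 CPM in EB, and the ligand Wnt3 0.331 and 0.216 CPM in mESC and 3.66 and 3.74 CPM in EB. Kdr, the VEGF receptor gene of early mesoderm, rose from 1.42 and 0.924 to 4.16 and 3.40 CPM, and Gsc, the goosecoid gene, fell from 3.17 and 3.76 to 0.507 and 0.618 CPM. Markers of the streak thus moved in different directions. In the neuroectoderm list 2 of 17 rose and 4 fell, with a median of 0.093 and log2 fold changes from -1.925 to 4.114. This called share of 35.3% was under the 59% of all genes, and the 4 that fell are not named here. The 2 that rose were Pax6, an eye and forebrain factor, with 0.165 and 0.431 CPM in mESC and 4.78 and 5.83 CPM in EB, and Neurod1, with 1.75 and 1.76 CPM in mESC and 7.66 and 8.92 CPM in EB. Sox1, the earliest neural SOX gene, had 3.74 and 4.68 CPM in mESC and 3.10 and 3.88 CPM in EB and Nes 24 and 26.8 CPM in mESC and 28.9 and 27.7 CPM in EB, both without a call.

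Among 23 primitive endoderm genes 6 rose and 11 fell, with a median of -0.14, or -0.26 without Ttr, which had 0 counts in all 4 libraries. Lama1, a laminin chain of basement membrane, fell from 169.7 and 197 to 18.4 and 19.9 CPM, Lamc1 from 1119.6 and 1221 to 415 and 437 CPM and the collagen gene Col4a2 from 141 and 138 to 35.4 and 35.5 CPM. The defining factors Gata4 and Sox17 fell from 6.81 and 7.55 to 2.94 and 2.20 CPM and from 3.24 and 2.68 to 0.961 and 1.27 CPM, and Gata6 had 1.72 and 0.832 CPM in mESC and 1.07 and 1.24 CPM in EB without a call. Cubn, an endocytic receptor of visceral endoderm, rose from 0.298 and 0.277 to 12.9 and 15.3 CPM, and Afp, the alpha-fetoprotein gene, from 0.165 and 0 to 4.72 and 5.04 CPM. Of 17 trophoblast genes 5 rose and 8 fell (median 0.093), and their log2 fold changes ran from -2.663 to 3.883. The list thus moved both ways, and its defining marker Elf5 is not reported here. Of the other defining markers Cdx2 fell from 1.55 and 1.57 to 0.454 and 0.378 CPM and Gata3 from 8.70 and 8.75 to 5.20 and 5.04 CPM. Krt7 had 1.65 and 1.60 CPM in mESC and 2.13 and 2.71 CPM in EB without a call.

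Of 15 feeder fibroblast genes tested, 9 rose and 4 fell, with a median of 1.67, or 1.07 without the KO mESC library of line 15.10. Their summed level was 141 and 148 CPM in mESC and 122 and 113 CPM in EB, most of it from Col5a1, which fell from 108 and 111 to 63.1 and 57.5 CPM. The defining markers stayed low in EB, with Col1a1 at 1.44 and 1.72 CPM (2.51 and 3.97 CPM in mESC), Col1a2 at 2.59 and 2.27 CPM (0.86 and 1.20 CPM in mESC) and Dcn at 0.747 and 0.927 CPM (at least 17.3-fold). Thy1 rose from 2.08 and 2.03 to 12.8 and 11.1 CPM. Col3a1, Lum and Postn failed the filter on low counts, with at most 10 counts in any of the 4 KO libraries. What share of these few reads came from carried-over feeder cells was not tested.

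The list with the largest median rise was that of the two-cell-like state, a rare condition of mESC in which RNAs of the early cleavage embryo reappear under the transcription factor DUX. Several of these genes are tandem copies with near-identical sequence, such as the deubiquitinase genes Usp17la to Usp17ld of chromosome 7, so reads may be shared between copies. Promoter stretches of 4 of them (RefSeq, GRCm38.p6) are shown 5′ to 3′ on the gene's strand because all 4 genes rose together, with matches to CCAAT on either strand in capitals.
Usp17la: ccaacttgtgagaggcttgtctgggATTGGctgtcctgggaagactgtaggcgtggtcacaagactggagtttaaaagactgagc
Usp17lb: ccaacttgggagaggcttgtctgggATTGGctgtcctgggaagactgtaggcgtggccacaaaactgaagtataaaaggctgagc
Usp17lc: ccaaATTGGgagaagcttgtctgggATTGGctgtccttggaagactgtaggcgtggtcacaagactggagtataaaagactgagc
Usp17ld: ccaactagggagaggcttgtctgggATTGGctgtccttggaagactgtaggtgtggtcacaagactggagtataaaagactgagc
They lie at chr7:104856900-104856984, plus strand, chr7:104842600-104842684, minus strand, chr7:103416538-103416622, plus strand, and chr7:103252601-103252685, minus strand. The match that all 4 share starts 91, 76, 133 and 155 bases before the annotated start of Usp17la, Usp17lb, Usp17lc and Usp17ld, and over the 85 bases any pair was 91.8% to 95.3% identical. CCAAT was found in 15 of the 18 promoters (83.3%) that matched the list, against 37.4% of all 32851 promoters of the same length, 250 bases before to 50 after the start. These promoters include copies and are not independent, only 17 of the 38 listed genes had one, and a match is a description, not a site.

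Of the 38 genes of this list, 30 passed the filter, and since most were near 0 in mESC they passed through the EB libraries, so the counts are a description. Of the 30, 28 rose and 0 fell, with a median of 5.76, or 5.73 with Tdpoz2 (0 reads in mESC) at the lowest change its counts allow. Usp17la had 0.463 and 0.493 CPM in mESC and 27.6 and 30.1 CPM in EB, 59.96-fold higher. Usp17lb rose from 0.628 and 0.431 to 49 and 49.6 CPM, Usp17lc from 0.529 and 0.308 to 34.3 and 34.6 CPM and Usp17ld from 0.0331 and 0.185 to 9.39 and 10.9 CPM. Zscan4d, of the Zscan4 cluster that marks the state, had 0.463 and 1.11 CPM in mESC and 48.5 and 59.6 CPM in EB, and Gm5039 1.36 and 1.54 CPM in mESC and 88 and 98.1 CPM in EB. In both lines these genes went from under 2 CPM to clear levels. Dux, the regulator itself, rose from 1.03 and 0.832 to 7.98 and 8.89 CPM, 9.07-fold, and Zfp352, a zinc-finger gene of the state, from 0.331 and 0.216 to 31.9 and 40.3 CPM. Arg2 had no call, with 0.562 and 0.739 CPM in mESC and 0.721 and 0.789 CPM in EB. The summed level of the 30 genes was 47.2 and 50.3 CPM in mESC and 782 and 868 CPM in EB.

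In WT 27 of the 30 genes rose, with a median log2 fold change of 3.12. Usp17lb had 0.0492 and 0.0964 CPM in WT mESC and 1.12 and 1.15 CPM in WT EB, and Gm5039 0.361 and 0.328 CPM in WT mESC and 4.91 and 2.82 CPM in WT EB. The rise was larger in KO for 16 of 30 genes and smaller for 0, but for 7 and 0 without the WT mESC library of line 5.3. Of all genes tested, 28.6% had a called difference in either direction with all libraries. That share is no background for the fit without 1 library, so no excess is read from that fit. For Dux the difference was -0.03 on the log2 scale and was not called (edgeR adjusted p = 0.944). Its levels still differed, with 0.0819 and 0.0578 CPM in WT mESC and 0.879 and 0.515 CPM in WT EB, below KO at both stages. F/F mESC of the same lines before OHT had 0.0489 and 0 CPM of Gm5039 and 0 and 0 CPM of Usp17lb, below both KO mESC libraries.

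A second set of genes that went from near 0 to measurable levels was interferon-inducible. Interferon acts through a transcription factor complex that binds a promoter element whose core holds GAAA, then 2 bases of any kind, then GAAA. Promoter stretches of 4 such genes (RefSeq, GRCm38.p6) are shown 5′ to 3′ on the gene's strand to show this core, whose matches on either strand (overlaps included) are in capitals. The motif was chosen after the genes were seen.
Gbp2: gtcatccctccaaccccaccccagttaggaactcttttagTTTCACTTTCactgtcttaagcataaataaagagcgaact
Gbp7: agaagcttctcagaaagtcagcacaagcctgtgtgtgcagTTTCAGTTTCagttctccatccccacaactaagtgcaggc
Isg15: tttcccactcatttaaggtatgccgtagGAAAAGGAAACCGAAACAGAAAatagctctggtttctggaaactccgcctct
Ifit1: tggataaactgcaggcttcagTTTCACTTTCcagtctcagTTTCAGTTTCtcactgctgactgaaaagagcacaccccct
They lie at chr3:142620564-142620643, plus strand, chr3:142530243-142530322, plus strand, chr4:156200845-156200924, minus strand, and chr19:34640764-34640843, plus strand. The core starts 59 bases before the annotated start of Gbp2 and 53 before that of Gbp7, and Isg15 holds 3 overlapping matches and Ifit1 2. It was found in 13 of 27 promoters of the interferon list (48.1%) and in 9 of 80 promoters of the 97 genes that went from under 0.1 to 1 CPM or more (11.2%), against 3.44% of all promoters. Both sets hold genes seen before the motif was chosen, and matches among the 97 include Cxcl10, Gbp2, Gbp3, Gbp7, Ifit1 and Isg15. The shares are therefore a description only. Other elements were the octamer ATGCAAAT, the T-box element TCACACCT and the sterol element TCACNCCAC. They were found in 1.79%, 1.47% and 1.24% of the promoters of genes that rose at least 2-fold. Among promoters of the genes tested the shares were 1.32%, 0.946% and 1.25%, and among all promoters 1.74%, 1.28% and 1.24%.

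Of 25 interferon response genes tested, 14 rose and 5 fell, with a median of 0.63, or 1.02 without the KO mESC library of line 15.10. Oasl2, an antiviral gene of the oligoadenylate synthetase family, had 0.231 and 0.246 CPM in mESC and 30.3 and 26.4 CPM in EB, and Ifih1, which encodes the RNA sensor MDA5, 0.331 and 0 CPM in mESC and 5.36 and 5.66 CPM in EB. Isg15, a ubiquitin-like modifier, had 0 reads in mESC and 2.08 and 1.65 CPM in EB (at least 39.5-fold). Ifit1 reached 2.19 and 2.30 CPM (70.1-fold, 95% counting interval 19.07 to 584). The transcription factor Irf1 rose from 33.7 and 31.7 to 230.0 and 212 CPM and Ddx58, which encodes the sensor RIG-I, from 27.4 and 28.3 to 82.9 and 84.5 CPM. Thus target genes, sensors and 1 factor were higher. Irf9, a DNA-binding factor of the response, was lower, from 14 and 12.1 to 6.32 and 6.18 CPM, and so was Oas1a, from 23.6 and 19.3 to 7.66 and 7.48 CPM. The same step in WT gave a median of 0.82, and Gbp2 rose there from 0.0983 and 0.116 to 60.5 and 78.7 CPM, with no called difference (edgeR adjusted p = 0.553). The difference was called higher in KO for 7 and lower for 1 of the 25 genes, beside 28.6% of all genes in either direction with all libraries. Without the WT mESC library of line 5.3 it was called for 4 and 1. Cxcl10, outside the list, was higher by 4.42 (edgeR adjusted p = 2.14e-05).

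**Figure D3:**
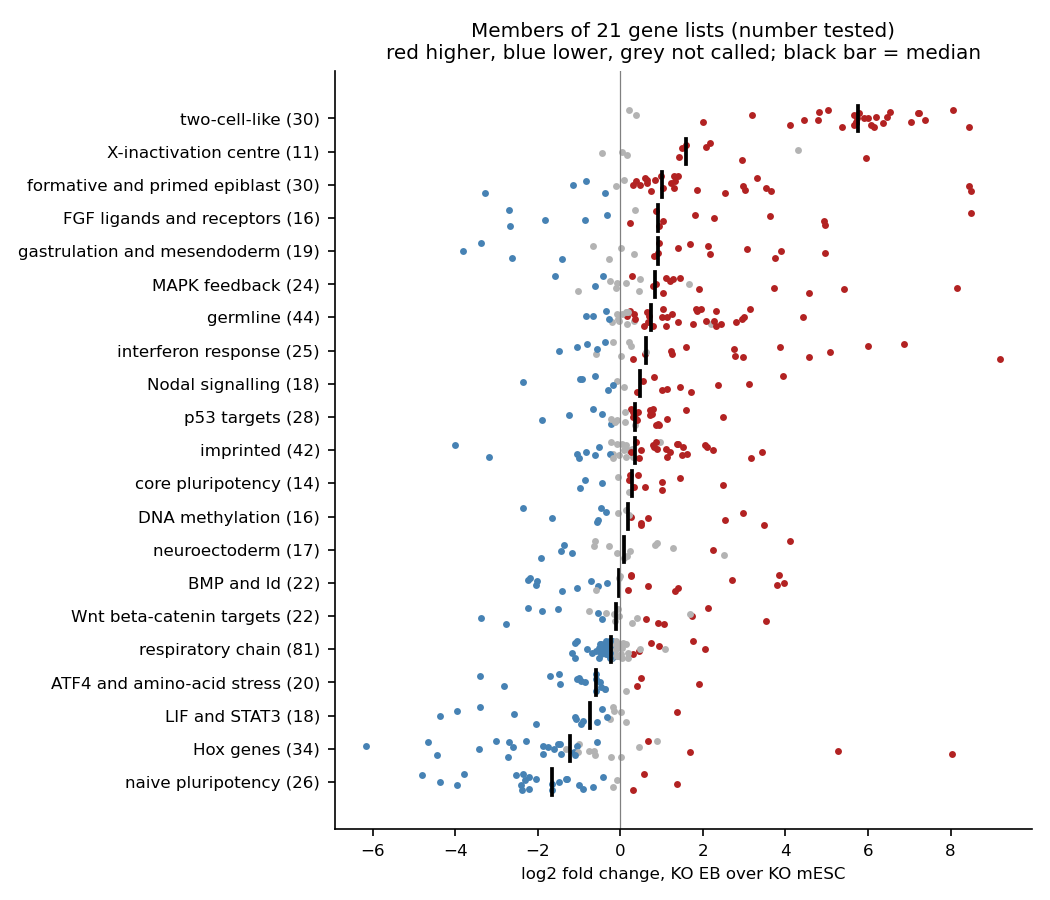
Log2 fold change from KO mESC to KO EB (x axis) of each tested member of 21 gene lists (y axis), 1 point per gene, with the list median as a black bar. The two-cell-like list has the highest median, 5.76, the formative list has a median of 1.01 and the naive list one of -1.65.

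Germline genes, many of which are methylated and silent in somatic cells, rose more often than they fell. Of 44 tested, 29 rose and 4 fell, with a median of 0.75. Asz1, of the piRNA pathway, had 4.89 and 4.44 CPM in mESC and 41.6 and 40.2 CPM in EB, and Sycp1, a protein of the synaptonemal complex, 8.17 and 7.64 CPM in mESC and 39.4 and 38.7 CPM in EB. Stra8, the meiotic entry factor, rose from 3.44 and 3.54 to 18.3 and 19.6 CPM, Mael, another piRNA gene, from 15.8 and 12.6 to 56.1 and 53.3 CPM, and Tex19.1, a regulator of retrotransposons, from 200.4 and 190.1 to 519 and 508 CPM. Pet2 rose from 5.79 and 5.18 to 43.5 and 41.4 CPM. Dazl, an RNA-binding protein of germ cells, was not called, with 308 and 268 CPM in mESC and 273 and 270.1 CPM in EB, and the receptor gene Kit fell from 189.7 and 193 to 105 and 109 CPM. Some of these genes fell in WT. Dazl had 608 and 687 CPM in WT mESC and 86.5 and 81.7 CPM in WT EB, and Asz1 14 and 12.4 CPM in WT mESC and 7.06 and 7.33 CPM in WT EB. The difference was 2.86 for Dazl (edgeR adjusted p = 6.36e-11) and 4.01 for Asz1 (edgeR adjusted p = 1.47e-10). The change was higher in KO than in WT for 25 of 44 genes and lower for 5, a called share above the 28.6% of all genes, but the list was chosen with earlier results of these data known. WT mESC started above KO mESC in these genes and in Sycp1, which had 54.7 and 54.8 CPM in WT mESC and 59.3 and 63.4 CPM in WT EB.

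Among 16 genes of DNA methylation, 7 rose and 6 fell, with a median of 0.17, and the de novo machinery rose most. Dnmt3l, the catalytically inactive cofactor, had 84.7 and 82.7 CPM in mESC and 941 and 913 CPM in EB, 11.1-fold higher. The methyltransferases Dnmt3b and Dnmt3a had 102 and 95.8 CPM in mESC and 776 and 784 CPM in EB and 66.3 and 68.3 CPM in mESC and 392 and 383 CPM in EB respectively. All 3 genes rose in both lines with no overlap, as did nearly all called genes in their own direction. The maintenance enzyme Dnmt1 fell from 913 and 925 to 661 and 673 CPM, its partner Uhrf1 had 533 and 568 CPM in mESC and 522 and 539.8 CPM in EB without a call, and Zfp57, which guards imprints, fell from 374 and 395 to 125 and 121 CPM. Compared with WT, the rise of Dnmt3l was larger in KO by 1.01 and that of Dnmt3a smaller, -0.77 (edgeR adjusted p = 5.48e-07 and 8.2e-05).

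Polycomb complex 2 writes the repressive methyl mark on histone H3. Of its 12 genes 3 rose and 4 fell (median -0.12), a called share of 58.3% beside 59% of all genes. The core subunits Suz12 and Eed were lower, from 660.3 and 660.5 to 399 and 392 CPM and from 222 and 227 to 143 and 142 CPM. The cofactor Jarid2 was higher, from 817 and 829.7 to 1055 and 1072 CPM, and the catalytic subunit Ezh2 was not called, with 165 and 186 CPM in mESC and 187 and 191 CPM in EB. Polycomb complex 1 had 9 of 22 higher and 7 lower (median -0.18). There Phc1 rose from 287 and 317 to 559.7 and 578 CPM and L3mbtl2 from 238 and 243 to 491 and 466 CPM. Heterochromatin and KAP1 genes gave 7 higher and 4 lower of 24 (median 0.05), a called share of 45.8%. The KAP1 gene Trim28 had 2081 and 2071 CPM in mESC and 1990.4 and 2110.4 CPM in EB, the heterochromatin protein gene Cbx1 rose from 93 and 101 to 176 and 166 CPM, and Ehmt2, a histone H3 methyltransferase, fell from 248 and 242 to 154 and 151 CPM.

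Female mESC have both X chromosomes active, and differentiation starts their silencing. X-linked genes rose more often than they fell in KO EB. Of 679 X-linked genes tested, 304 rose (44.8%) and 154 fell (22.7%), beside 30.9% and 27.8% of 16384 autosomal genes. Their median log2 fold change was 0.30, with 0.28 in line 15.10 and 0.32 in line 16.9, against 0.036 for autosomes, and it was the highest of the 20 chromosome medians, the next being 0.14 for chromosome 3. In WT the X-linked median was -0.12. Reads of X-linked genes came to 5.05% and 4.78% of the autosomal ones in KO mESC and 5.47% and 5.39% in KO EB, against 5.04% and 5.06% in WT mESC and 4.42% and 4.60% in WT EB. By this measure the KO EB values lay above those of both KO mESC libraries, and the WT EB values below those of both WT mESC libraries. Before OHT the share was 5.08% and 4.91% in F/F mESC and 5.31% and 5.40% in mESC of the WT lines. The median CPM of X-linked genes divided by that of autosomal genes was 0.775 and 0.761 in KO mESC and 1.03 and 1.04 in KO EB. In WT this ratio was 0.752 and 0.694 in mESC and 0.702 and 0.744 in EB, which overlap. In F/F mESC it was 0.632 and 0.570, below KO mESC. The WT lines before OHT had 0.767 and 0.738, so the 2 pairs of lines already differed before OHT. Both measures thus separated the KO states, and the ratio did not separate the WT states. The change of 247 X-linked genes of 679 was higher in KO than in WT and that of 33 lower, beside 2290 and 2313 of the 16384 autosomal genes.

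In the X-inactivation centre 7 of 11 genes rose and 0 fell, a called share of 63.6% that is close to the 59% of all genes. The median was 1.59, or 1.49 with Zcchc13 (0 reads in mESC) at the lowest change its counts allow. Xist had 30.5 and 21.4 CPM in mESC and 71.8 and 67.1 CPM in EB, 2.69-fold higher (1.42 ± 0.15, edgeR adjusted p = 3.25e-07). In WT it had 35.1 and 42.6 CPM in mESC and 168 and 191 CPM in EB, so the rise in KO was smaller (difference -0.79, edgeR adjusted p = 0.009), and both KO EB libraries lay below both WT EB libraries. Without the KO mESC library of line 15.10 the difference was -0.51 (edgeR adjusted p = 0.0836). Tsix, transcribed against Xist and known to hold it down, had 7.04 and 5.42 CPM in mESC and 6.56 and 6.21 CPM in EB and was not called, although without a stated strand setting its reads and those of Xist cannot be told apart. Rlim, which encodes the ubiquitin ligase RNF12 that activates Xist, had 356 and 343 CPM in mESC and 1476 and 1486 CPM in EB, 4.24-fold higher, and rose less in WT, from 409 and 416 to 940.0 and 897 CPM. Ftx, a noncoding RNA of the centre, rose from 7.64 and 6.22 to 19.6 and 19.3 CPM and Jpx from 0.0992 and 0.0616 to 0.534 and 0.755 CPM. Klhl13, an X-linked gene that dampens differentiation, rose from 332 and 311 to 779 and 779 CPM, by 0.89 more than in WT (edgeR adjusted p = 2.07e-06).

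**Figure D4:**
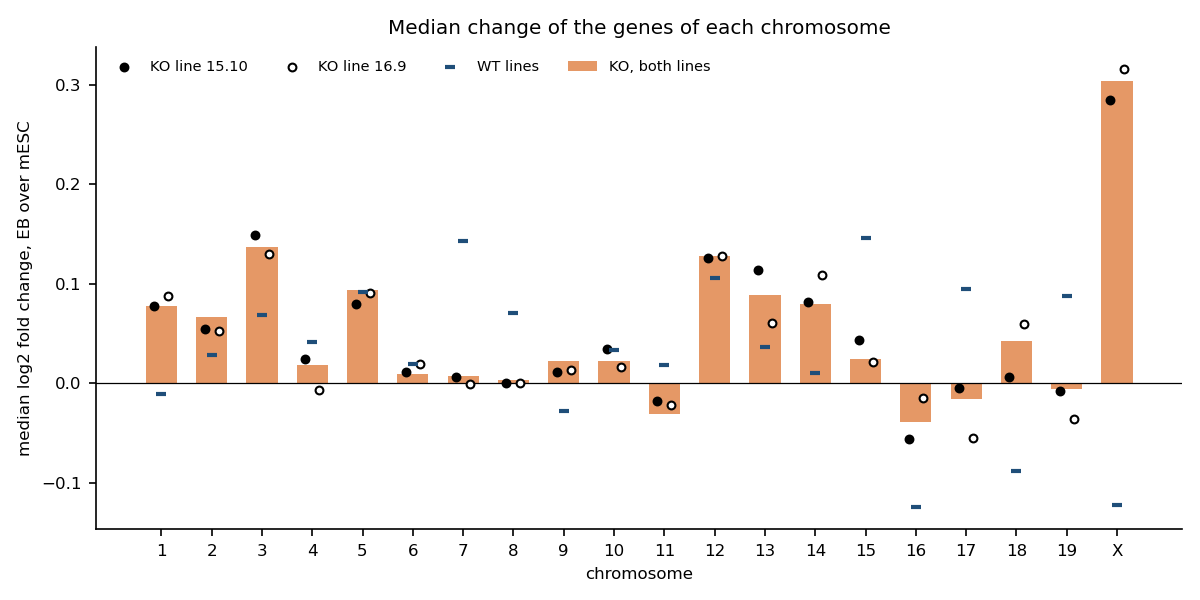
Median log2 fold change from mESC to EB of the tested genes of each chromosome, with bars for the KO fit, black and open circles for KO lines 15.10 and 16.9, and blue dashes for WT. The X chromosome has the highest KO bar (0.30) and a WT median below 0 (-0.12).

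Of 42 imprinted genes tested, 21 rose and 8 fell, with a median of 0.35. Mest, of the hydrolase family, rose from 63.6 and 64.8 to 312 and 301 CPM, the retrotransposon-derived Peg10 from 144 and 163 to 669 and 652 CPM, Peg3 from 219 and 220.1 to 506 and 505 CPM and the cyclin-dependent kinase inhibitor Cdkn1c from 0.893 and 1.08 to 9.53 and 8.13 CPM. Plagl1, a zinc-finger factor, fell from 78.7 and 95.9 to 9.29 and 9.95 CPM. Genes of the Dlk1-Dio3 region of chromosome 12 moved both ways. The maternally expressed noncoding RNAs Meg3, Rian and Mirg had 120.3 and 143 CPM in mESC and 284 and 294 CPM in EB, 188 and 208 CPM in mESC and 507 and 519 CPM in EB and 23.5 and 24.9 CPM in mESC and 64.7 and 63.6 CPM in EB respectively. Dio3, a deiodinase at the far end of the region, fell from 41.5 and 44 to 2.64 and 2.71 CPM. WT lines began lower and ended at similar CPM, with Meg3 at 18.1 and 15.4 CPM in mESC and 278 and 271 CPM in EB, so that the rise was smaller in KO (-2.90, edgeR adjusted p = 3.65e-10). For 14 imprinted genes the change was lower in KO than in WT and for 5 higher, beside 28.6% of all genes with a called difference in either direction.

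Chromosome 12, which carries this region, held 26 of the 42 microRNA rows that rose. Rows named for microRNAs count reads over hairpin loci in total RNA and do not measure mature microRNAs. Of 42 tested on chromosome 12, 26 rose and 0 fell. For 23 of the 42 tested there, the change was lower in KO than in WT, beside 28.6% of all genes with a called difference in either direction. How far these rows count reads of longer RNAs such as Rian and Mirg was not tested. The rows are thus not taken as independent of those genes or of each other. Over all chromosomes 143 were tested, and 42 rose and 4 fell, a called share of 32.2% that is under the 59% of all genes. Outside chromosome 12 the rises included the Mir302 cluster of chromosome 3, whose microRNAs are typical of pluripotent cells, and the Mir106a-363 cluster of the X chromosome. Mature sequences of 6 of their members (RefSeq, GRCm38.p6) are shown 5′ to 3′ to compare seeds, bases 2 to 8 in capitals.
miR-302b-3p: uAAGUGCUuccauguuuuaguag
miR-302c-3p: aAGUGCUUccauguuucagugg
miR-20b-5p: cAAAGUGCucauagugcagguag
miR-106a-5p: cAAAGUGCuaacagugcagguag
miR-18b-5p: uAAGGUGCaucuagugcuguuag
miR-363-3p: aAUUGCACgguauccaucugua
They lie at chr3:127545275-127545297, plus strand, chr3:127545406-127545427, plus strand, chrX:52742159-52742181, minus strand, chrX:52742541-52742563, minus strand, chrX:52742381-52742403, minus strand and chrX:52741697-52741718, minus strand. miR-20b-5p and miR-106a-5p share the seed AAAGUGC. Mir302a had 0.132 and 0.185 CPM in mESC and 2.38 and 3.09 CPM in EB, Mir302b 0.0661 and 0.277 CPM in mESC and 2.32 and 2.02 CPM in EB and Mir302c 0.165 and 0.37 CPM in mESC and 1.52 and 1.54 CPM in EB. Mir18b had 0.231 and 0.308 CPM in mESC and 5.23 and 5.66 CPM in EB and Mir363 0.231 and 0.216 CPM in mESC and 4.22 and 3.95 CPM in EB. In all 5 both EB libraries lay above both mESC libraries. Of 9 rows tested on the X chromosome 6 rose and 0 fell. Of the 6, Mir106a rested on 3 reads in mESC (8.47-fold, 95% counting interval 2.61 to 43.6) and Mir19b-2 on 1 (27.3-fold, 95% counting interval 4.53 to 1110).

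Hox genes fell from low levels, 20 of 34 lower and 4 higher, with a median of -1.22. Hoxc13 fell from 9.52 and 11.8 to 3.20 and 2.54 CPM and Hoxd9 from 4.17 and 5.11 to 0.587 and 0.549 CPM, posterior members both. Among the few that rose, Hoxb1, an anterior member, had 0 reads in mESC and 0.667 and 1.03 CPM in EB (at least 17.3-fold). Replication-dependent histone genes gave 16 higher and 0 lower of 57, a called share of 28.1% that is under the 59% of all genes, with a median of 0.29. Without the KO mESC library of line 15.10 the median was 0.11, and without that of line 16.9 it was 0.45. The rises were led by genes such as Hist3h2ba (from 1.42 and 1.88 to 41.4 and 39 CPM), the germline variant Hist1h2aa (from 4.00 and 5.15 to 55.3 and 51.3 CPM) and Hist1h1t, the testis linker histone (from 3.01 and 3.27 to 21.3 and 20.7 CPM). These transcripts lack a long poly(A) tail, and their copies share sequence. In WT the median was 1.28, or 0.78 without the WT mESC library of line 5.3. The difference was lower in KO for 35 genes with that library and 24 without it, beside 28.6% of all genes in either direction with it.

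Among 27 cell-cycle regulators 14 rose and 8 fell, with a median of 0.23. The D cyclins diverged, with Ccnd1 and Ccnd2 (from 8.04 and 5.76 to 33 and 32.8 CPM) higher and Ccnd3 lower (from 190.1 and 205 to 77.7 and 73.2 CPM). The inhibitor gene Cdkn1b fell from 28.3 and 31.3 to 13.4 and 12.7 CPM, and Myc rose from 2.61 and 4.19 to 13.9 and 15.8 CPM. In WT, Ccnd2 had 18.9 and 15.7 CPM in mESC and 19.4 and 22.2 CPM in EB. Replication licensing genes had 9 of 30 higher and 3 lower (median 0.02), a called share of 40% that is under the 59% of all genes. Ticrr, which encodes treslin, fell from 391 and 427 to 139.5 and 139 CPM. Of 12 genes listed as partners of RIF1, with Rif1 itself, 3 rose and 5 fell (median 0.023). Their called share was 66.7%, beside 59% of all genes. Trp53bp1, which encodes 53BP1, the protein that brings RIF1 to DNA breaks, rose from 101 and 92.3 to 211 and 209 CPM, and Mad2l2, which encodes the shieldin subunit REV7, fell from 29 and 29.7 to 12.8 and 11.2 CPM.

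Targets of p53 rose in 17 of 28 and fell in 5, with a median of 0.36 beside 0.067 in WT, or 0.17 in WT without the mESC library of line 5.3. Plk3, a polo-like kinase, rose from 18.4 and 18.5 to 103 and 103 CPM, Pmaip1, which encodes the death factor NOXA, from 105 and 95.5 to 296 and 306 CPM, and Mdm2 from 220.1 and 210.2 to 398 and 382 CPM. Gdf15, a secreted stress factor, fell from 8.63 and 9.89 to 2.67 and 2.30 CPM. Cdkn1a, the p21 gene, had 96 and 115 CPM in mESC and 92.8 and 86 CPM in EB and was called lower, but not without the mESC or the EB library of line 16.9 (edgeR adjusted p = 0.358 and 0.156). With all libraries the change was higher in KO than in WT for 9 genes and lower for 2, beside 28.6% of all genes in either direction. Without the WT mESC library of line 5.3 these numbers were 5 and 1.

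Genes of amino-acid stress and of the respiratory chain fell more often than they rose. Of 20 genes of the ATF4 and amino-acid response, 15 fell and 3 rose, with a median of -0.59. Asns, the asparagine synthetase gene, had 1416 and 1402 CPM in mESC and 198 and 204 CPM in EB, 7.01-fold lower, and Nupr1, a stress-induced cofactor, 18.7 and 20.8 CPM in mESC and 1.95 and 1.75 CPM in EB. Nuclear genes of the respiratory chain fell in 43 of 81 and rose in 6, by small amounts, with a median of -0.23. Their called share was 60.5%, beside 59% of all genes, of which 27.6% fell and 31.4% rose. The cytochrome oxidase genes Cox5a and Cox6b1 fell from 168 and 163 to 78.6 and 77 CPM and from 125 and 138 to 63.4 and 64 CPM. Glycolysis genes were split, 6 higher and 9 lower of 24 (median 0.05), a called share of 62.5% beside 59% of all genes. The glucose transporter gene Slc2a3 fell from 1984 and 2069 to 675 and 727 CPM. The lactate transporter gene Slc16a3 rose from 44 and 55.2 to 187 and 192 CPM. Hypoxia response genes gave 7 higher and 5 lower of 18 (median 0.028), a called share of 66.7%. Vegfa was lower, from 72.8 and 68.6 to 7.71 and 9.44 CPM, and Ddit4 higher, from 24.6 and 31.5 to 193 and 180.4 CPM. In the cholesterol synthesis list 2 of 19 rose and 7 fell (median -0.12), and in the list of SREBP regulators and lipid uptake 5 of 19 rose and 10 fell (median -0.30). Abca1, a cholesterol exporter, fell from 67.8 and 60.4 to 28.2 and 29.5 CPM. Ribosomal protein genes were called in 28.9% of 76, against 59% of all genes, with 13 higher and 9 lower (median 0.034). Many of these, like Gapdh at 10.5 and 11.1 CPM in EB, have processed copies in the genome, and their counts may be incomplete.

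**Figure D5:**
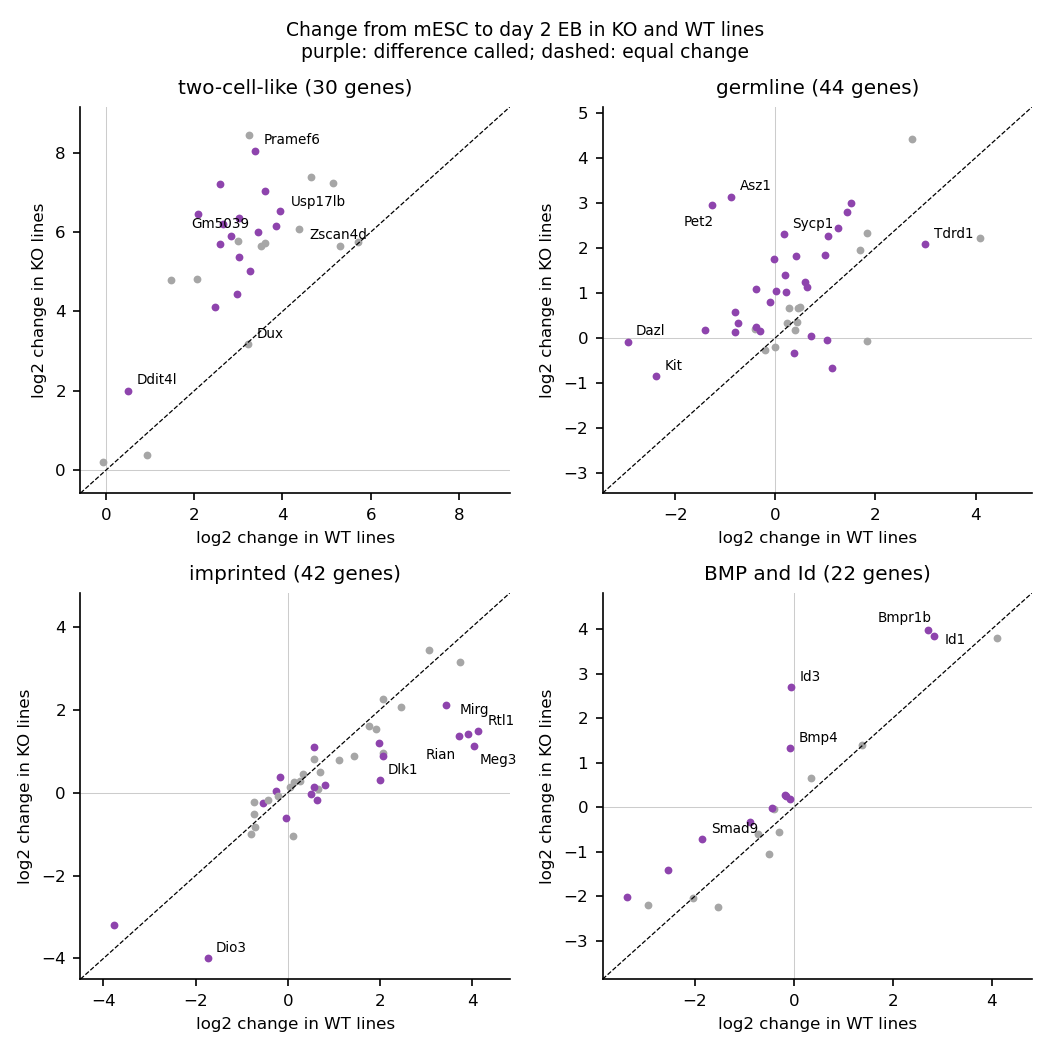
Log2 change from mESC to EB in the WT lines (x axis) and in the KO lines (y axis) for members of 4 lists, 1 point per gene, with the dashed line marking equal change and purple marking a called difference. Two-cell-like, germline and BMP genes with a called difference lie mostly above the line, and Meg3, Rian, Mirg and Rtl1 lie below it.

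The step was next set against the same step in WT, where 10661 genes were called (62.3%). Of the 10100 calls in KO, 7042 were called in the same direction in WT, 484 in the opposite direction and 2574 not at all. The change itself differed between KO and WT for 4889 of all genes tested (28.6%), 2541 with a higher and 2348 with a lower value in KO. The second number was 1525 without the KO mESC and 1554 without the KO EB library of line 16.9. Among the 10100 KO calls it differed in 3429 (34%). Both genotypes had OHT and the same run at each stage, but the 2 pairs of lines are different lines. The GC content of transcripts moved with this difference. Over 4 equal classes from the lowest to the highest GC content the median log2 fold change in KO was 0.14, 0.078, -0.00067 and -0.081, and in WT -0.029, -0.043, 0.040 and 0.21, and its part in the called differences was not tested.

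Genes with the largest differences included several that moved in opposite directions. Atp4b, the beta subunit of the gastric proton pump, had 1.36 and 1.17 CPM in mESC and 63.4 and 75.5 CPM in EB in KO, and 0.164 and 0.173 CPM in WT mESC and 0.0606 and 0.0981 CPM in WT EB (6.80, edgeR adjusted p = 5.77e-07). The X-linked gene 4930550L24Rik had 48.1 and 45.3 CPM in mESC and 202 and 187 CPM in EB in KO, and 40.5 and 38.5 CPM in WT mESC and 4.49 and 3.78 CPM in WT EB (5.32, edgeR adjusted p = 2.14e-14). The WT change was downward in the latter gene and not called in the former. Colgalt2, a collagen galactosyltransferase, rose from 8.37 and 6.90 to 50.7 and 53.5 CPM in KO, with 10.4 and 9.38 CPM in WT mESC and 3.06 and 1.99 CPM in WT EB. Nell1, a secreted glycoprotein, rose from 0.463 and 0.431 to 37.8 and 43.7 CPM, Prr18 from 1.36 and 1.23 to 24.6 and 26 CPM, Gm8994 from 0.0992 and 0.185 to 14 and 13.9 CPM, Pramef6 as above, and Phf11a from 1.69 and 1.85 to 3.60 and 4.15 CPM, while in WT Phf11a was at 3.64 and 3.08 CPM in mESC and 0 and 0.0981 CPM in EB. The difference of Gm8994 was not called without the WT mESC library of line 5.3 (edgeR adjusted p = 0.0679).

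In the other direction, Nefm, a neurofilament gene, fell from 8.27 and 11.4 to 4.24 and 3.33 CPM in KO, while WT went from 0.131 and 0.135 CPM to 3.21 and 4.00 CPM (-6.10, edgeR adjusted p = 2.01e-08). The EB levels of both genotypes were thus close, and the mESC levels were not. Tll1, a secreted metalloprotease, fell from 17 and 17.9 to 5.95 and 5.46 CPM and went from 1.13 and 0.848 to 3.82 and 4.41 CPM in WT, and the sodium channel gene Scn3a fell from 22.3 and 20.8 to 5.95 and 6.69 CPM with 4.03 and 3.55 CPM in WT mESC and 9.09 and 7.92 CPM in WT EB. Ido2, a tryptophan-degrading enzyme, fell from 4.99 and 6.01 to 0.774 and 0.583 CPM, with 1.66 and 2.06 CPM in WT mESC and 2.03 and 2.40 CPM in WT EB. Pcdh18, a protocadherin, rose from 1.19 and 0.924 to 4.22 and 4.43 CPM and the growth factor gene Hgf from 0.364 and 0.585 to 4.94 and 5.15 CPM, and in both the rise was larger in WT. Mir668, of the Dlk1-Dio3 region, rose from 1.09 and 1.48 to 3.12 and 3.67 CPM, with 0.0819 and 0.154 CPM in WT mESC and 3.46 and 3.16 CPM in WT EB. Among pluripotency genes, Nanog fell less in KO than in WT, where it had 971 and 882 CPM in mESC and 79.7 and 67.7 CPM in EB (difference 1.25, edgeR adjusted p = 9.68e-07), and Fbxo15, called higher in KO, had 354 and 311 CPM in WT mESC and 111 and 95.7 CPM in WT EB.

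Taking F/F mESC before OHT as the starting point for the same 2 lines added the effects of OHT, of the deletion and of another sequencing run to the step. Against these libraries KO EB had 6203 genes higher and 5895 lower, with 2914 and 2596 by at least 2-fold. This comparison shares the KO EB libraries with the one above and is no independent check of it. Nanog was at 569 and 640.4 CPM in F/F mESC, Klf4 at 462 and 499 CPM, Dnmt3b at 64.9 and 75.2 CPM and Fgf5 at 0.0489 and 0.0723 CPM, on the same side of both KO EB libraries as the KO mESC values. Among the genes named, the calls of Pou5f1, Axin2 and Cdx2 were lost against F/F mESC, with a log2 fold change of -0.085 for Pou5f1, and Cdh2 was higher in EB instead of lower (0.85).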

How the data were processed

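Raw read counts per gene, as deposited by the authors, were used for 12 mouse libraries of total RNA, 2 per group. The submitters' processing notes name BWA, HTSeq, DESeq2 and the build mm9, with no versions or roles. No source used here gives the strand setting. Symbols were matched to RefSeq on GRCm38.p6, 23175 by symbol and 1096 by synonym of 24391. Genes passing edgeR's filterByExpr (minimum count 10, minimum total 15) were scaled by TMM and fitted over all 6 groups with edgeR 4.0.16 in R 4.3.3, a quasi-likelihood test and Benjamini-Hochberg adjustment at 0.05. The script was tested on simulated data. CPM are normalised by TMM. Folds of genes with under 4 reads in a group carry exact counting intervals (95%), and 0 reads were set to a floor of 3 over the group, which covers counting error only.

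The members and the 37 gene lists were chosen with earlier results of these data known. Named genes were Rif1, Xist and Tsix, the 12 largest changes per direction (mean log2 CPM of at least 1, no overlap), the 8 largest differences from WT per direction, and, per list, up to 5 members with the smallest adjusted p and the most abundant uncalled one. Not all of these genes are named, some are not reported here, and other members were named by role after their values were seen. The interferon motif and the fits without the WT mESC library of line 5.3 by list were added after the data were seen. KO mESC, KO EB and F/F libraries are paired by cell line, per the labels. Deviations of the lines from the group means correlated at -0.00289 between KO mESC and KO EB, 0.0912 between KO mESC and F/F and 0.0285 between KO EB and F/F. Alternatives were other scaling, no filter, DESeq2 1.42.0, a line block, fewer libraries, F/F mESC as reference and each library left out.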

Additional observations from a re-analysis of the deposited data

Results flagged for a closer look

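Of the 241 genes named, 115 changed differently in KO and WT by edgeR's test of the difference itself, with 69 values higher and 46 lower in KO. Each value below is the log2 change from mESC to EB in KO minus that in WT, with 2 libraries in each group. A gene of several lists is given once. Groups of 2 libraries were not searched for outlying samples.

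Higher values in KO, for pluripotency genes, were 2.00 for Fbxo15, 1.84 for Dppa3, 1.34 for Prdm14, 1.25 for Nanog, 0.76 for Lin28b, 0.75 for Mras, 0.61 for Nr5a2 and 0.33 for Tfcp2l1. The pluripotency genes with a smaller or more negative change in KO gave -0.80 for Gbx2, -0.76 for Tet2, -0.74 for Fgf4, -0.64 for L1td1, -0.51 for Klf5 and -0.48 for Tbx3. The epiblast, epithelial and mesenchymal genes with a higher value in KO gave 1.74 for Esrp1, 0.39 for Zeb1 and 0.39 for Lef1. On the lower side, epiblast, epithelial and mesenchymal genes gave -1.47 for Foxd3, -1.05 for Pou3f1, -0.96 for Vim, -0.86 for Otx2, -0.77 for Dnmt3a, -0.66 for Cldn6, -0.50 for Pim2 and -0.40 for Cdh1. Among signalling genes the values above 0 were 2.74 for Id3, 1.63 for Spry4, 1.40 for Bmp4, 1.34 for Gata2, 1.30 for Etv4, 1.27 for Bmpr1b, 1.15 for Ccnd1, 1.05 for Dusp4, 1.01 for Id1, 0.95 for Fgfr2, 0.89 for Klhl13, 0.55 for Pim1, 0.53 for Socs3, 0.49 for Lefty2, 0.46 for Nodal, 0.40 for Smad2 and 0.29 for Stat3. Values below 0 among signalling genes were -1.90 for Fgf3, -1.86 for Spry2 and -1.29 for Fzd7. Higher values in KO, for lineage markers, Hox and feeder genes, were 1.63 for Pax6, 1.35 for Thy1, 0.93 for Nes and 0.78 for Eomes. The lineage markers, Hox and feeder genes with a smaller or more negative change in KO gave -6.10 for Nefm, -4.35 for Col1a2, -1.43 for Gata3 and -1.05 for Gata4. The two-cell-like and germline genes with a higher value in KO gave 4.66 for Pramef6, 4.38 for Usp17ld, 4.21 for Pet2, 4.01 for Asz1, 3.43 for Zfp352, 3.35 for Usp17lc, 3.07 for Usp17la, 2.86 for Dazl, 2.59 for Usp17lb, 2.55 for Gm5039, 2.14 for Sycp1, 1.54 for Kit, 1.19 for Tex19.1 and 1.18 for Stra8. Among interferon genes the values above 0 were 5.23 for Isg15. Higher values in KO, for chromatin and histone genes, were 1.01 for Dnmt3l and 0.72 for Hist1h2aa. The chromatin and histone genes with a smaller or more negative change in KO gave -0.87 for Ehmt2. The genes of the X-inactivation centre with a higher value in KO gave 0.93 for Rlim. On the lower side, genes of the X-inactivation centre gave -0.98 for Ftx and -0.79 for Xist. Among imprinted genes the values above 0 were 0.59 for Plagl1. Values below 0 among imprinted genes were -2.90 for Meg3, -2.62 for Rtl1, -2.51 for Mirg, -2.34 for Rian, -2.26 for Dio3, -1.32 for Peg10 and -0.77 for Peg3. Higher values in KO, for cell-cycle, p53 and RIF1 partner genes, were 2.00 for Ccnd2, 0.68 for Pmaip1, 0.43 for Rif1 and 0.29 for Trp53bp1. The cell-cycle, p53 and RIF1 partner genes with a smaller or more negative change in KO gave -1.36 for Gdf15 and -0.72 for Cdkn1b. The metabolic genes with a higher value in KO gave 1.11 for Slc2a3, 1.02 for Abca1, 0.87 for Ddit4 and 0.50 for Asns. On the lower side, metabolic genes gave -2.04 for Nupr1, -0.80 for Slc16a3 and -0.64 for Vegfa. Among genes of no list the values above 0 were 7.01 for Phf11a, 6.80 for Atp4b, 5.32 for 4930550L24Rik, 4.86 for Prr18, 4.77 for Colgalt2, 4.69 for Nell1, 4.64 for Gm8994, 4.42 for Cxcl10, 3.87 for Vrtn and 1.24 for Trpm1. Values below 0 among genes of no list were -3.83 for Pcdh18, -3.65 for Tll1, -3.41 for Mir668, -3.29 for Hgf, -3.26 for Ido2, -2.93 for Scn3a, -2.68 for Ffar3, -2.48 for Tbx20, -2.43 for Lvrn and -2.11 for Fbp2.

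Of these 115 calls, 87 were kept under every alternative run and 28 were lost under 1 or more, 20 of them only where 1 library was left out. Without the WT mESC library of line 5.3, which stands apart, 11 calls of edgeR were lost, with differences of 1.39 for Bmpr1b (adjusted p = 0.0722), 0.79 for Etv4 (adjusted p = 0.0572), 4.00 for Gm8994 (adjusted p = 0.0679), 3.66 for Isg15 (adjusted p = 0.332), -0.41 for Pim2 (adjusted p = 0.0876), 0.23 for Stat3 (adjusted p = 0.155), 0.24 for Tfcp2l1 (adjusted p = 0.113), 0.22 for Trp53bp1 (adjusted p = 0.146), 2.45 for Usp17la (adjusted p = 0.0553), 0.30 for Zeb1 (adjusted p = 0.13) and 2.11 for Zfp352 (adjusted p = 0.5). Other calls were lost in other fits, where the differences were -0.31 for Cdh1, -0.66 to -0.55 for Cldn6, -1.36 for Gata3, -1.34 to -1.26 for Gdf15, 0.51 to 0.66 for Hist1h2aa, -0.35 for Klf5, 0.32 to 0.46 for Lef1, 0.32 to 0.54 for Lefty2, -2.28 to -1.90 for Lvrn, 0.65 to 0.68 for Mras, 0.36 to 0.43 for Nodal, 0.49 for Nr5a2, 1.12 for Pax6, 1.10 for Spry4, -0.51 to -0.33 for Tbx3, 2.10 for Usp17lb and -0.77 to -0.51 for Xist. With cell line as a replicate block the calls of Isg15, Lef1 and Trp53bp1 were lost. Isg15 had 0 reads in both KO mESC libraries, so its value depends on the prior count of the fit and is no measured size, and its call was also lost with DESeq2 (adjusted p = 0.0502), with scaling by library size only (edgeR adjusted p = 0.0516) and under the block (edgeR adjusted p = 0.0613). The values of Col1a2 (1 in WT mESC), Hgf (3 in WT mESC) and Vrtn (3 in KO mESC) rest on 3 or fewer reads in 1 group.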

How the results depend on the processing

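Genes higher in EB numbered 4420 to 6203 and genes lower 3990 to 5895 over the alternatives, against 5371 and 4729. Fitted with cell line as a replicate block the counts were 5276 and 4663, and 9837 of the 10100 calls were kept. The block moved no count of calls by over 1.5 times. DESeq2 gave 4965 and 4461 and kept 9394. With F/F mESC before OHT as the reference 2596 genes were lower by at least 2-fold, against 1663, which adds OHT, the deletion and another run to the step. Genes whose change was lower in KO than in WT numbered 1525 to 2710 when 1 library at a time was left out. The cause was not tested. The scaling alternatives put the median of all genes at 0.047 and 0.063, against 0.043, and the fit of only the 4 KO libraries put it at 0.004.

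Signs also turned. Against F/F mESC the log2 change was -0.52 for Rif1 and 0.85 for Cdh2, and list medians became -0.0176 for neuroectoderm, -0.33 for trophoblast, 0.03858 for PRC1 and -0.29 for RIF1 partners. Leaving out 1 KO library at a time gave medians of -0.16 to 0.004827 for Wnt targets, -0.13 to 0.08549 for BMP and Id, -0.27 to 0.54 for trophoblast, -0.03772 to 0.1005 for glycolysis, -0.003495 to 0.09496 for hypoxia, -0.04038 to 0.0549 for RIF1 partners and -0.01225 to 0.05858 for ribosomal proteins. With only the 4 KO libraries fitted they were -0.01221 for hypoxia, -0.01899 for replication licensing, -0.0177 for RIF1 partners and -0.001795 for ribosomal proteins. For these lists no direction is claimed. Leaving out 1 KO library at a time also moved some medians by over 1.5 times with the sign kept, to 0.02508 to 0.1534 for neuroectoderm, -0.31 to -0.03548 for primitive endoderm, -0.21 to -0.07768 for PRC2, 0.002311 to 0.05876 for heterochromatin and KAP1, -0.17 to -0.07068 for cholesterol synthesis, -0.31 to -0.18 for SREBP regulators and uptake, 0.003118 to 0.06964 for replication licensing, 0.005142 to 0.20 for epithelial and mesenchymal genes, 1.07 to 2.04 for feeder genes, 0.61 to 1.02 for interferon genes and 0.11 to 0.45 for histone genes. Genes near the filter of 10 counts rest on few reads.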
